A study of Rattus norvegicus with 8 samples.

Results

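The 10 transcripts described here encode heat shock proteins and chaperones of the cytosol: the small heat shock proteins Hspb1, Hspb6, Hspb7, Hspb8 and Cryab, the stress-inducible HSP70 proteins Hspa1a and Hspa1b, and the HSP70 partners Hsph1, Bag3 and Dnajb1. They were taken by symbol as a fixed list, with no threshold on their values, and all 10 had a row among the 29884 gene symbols of the deposited count table. RNA was sequenced from the cervix of wild-type pregnant Sprague-Dawley rats that had received, on gestational day 17, an intraperitoneal injection of lipopolysaccharide (LPS, the endotoxin of Gram-negative bacteria) at 100 µg/kg, or phosphate-buffered saline (PBS) in the same volume. Tissue was taken 12 hours later, with 4 libraries per group that the series calls biological replicates. The injection is used as a model of preterm birth, and the age of the animals was not given in the sources used here. The comparison asks how these chaperone transcripts differ between the LPS and the PBS cervix, and whether the small heat shock genes linked to muscle differ in the same way as the stress-induced HSP70 genes.

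Small heat shock proteins hold unfolding proteins in solution without using ATP, and in muscle several of them associate with actin, desmin and filamin. HSP70 proteins refold such clients in cycles of ATP hydrolysis, which J-domain proteins such as Dnajb1 start and nucleotide exchange factors such as Hsph1 and Bag3 complete. Transcription of the inducible HSP70 genes, and of many of their partners, is switched on by heat shock factor 1 when proteins misfold, and it responds within minutes to heat, oxygen lack and tissue injury. Smooth muscle, the uterus and cervix included, is known to be rich in Hspb1, Hspb6 and Cryab.

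Libraries held between 33191039 and 40634384 counts, and 16117 genes passed the filter on low counts, the 10 members among them. Levels are counts scaled for library size and composition (CPM with TMM factors). The lowest count of any member in any library was 459, for which counting error alone is 4.67%. PBS replicate 4 and LPS replicate 4 stood apart from the rest of their groups in the stress-inducible members, so several results are given with and without them. Without these libraries each group has 3 libraries. A fold change or call with no such statement is from all 8 libraries. Smooth muscle, squamous epithelium, glandular epithelium and fibroblast markers were present in every library, and the smooth muscle markers (15 genes, Acta2, Myh11 and Des among them) summed to between 5742 and 17759 CPM. Of the 16 striated muscle markers, Mylpf had no row in the count table, and Myh7 was at 0 in every library. Ckm, Myh1, Myh2, Myh4, Tnni2 and Actn3 were below the filter. The 8 that were tested summed to 54.2 to 287 CPM, with Acta1 alone at 33.7 to 254 CPM. Of these 8, Acta1 and Actc1 fell and 0 rose with edgeR. DESeq2 called 1 higher (Tnnt1) and 3 lower, and limma-voom 1 higher (Tnnt1) and 2 lower. Tnnt1 was at 0.0899 to 0.639 CPM in PBS and 0.766 to 1.67 CPM in LPS (edgeR adjusted p = 0.0503). All 8 neutrophil markers rose, from sums of 132 to 333 CPM in PBS to 3214 to 4925 CPM in LPS, and 6 of 8 macrophage markers rose.

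1 of the 10 members differed between the groups: Hspb1 fell 2.13-fold after LPS, and 0 rose (edgeR's quasi-likelihood test, adjusted p under 0.05). Over all genes tested, 16.9% were called, 9.49% higher and 7.45% lower in LPS, so 1 call among 10 members is near the background and is no result about the set. At an unadjusted p under 0.05, 2 members were lower (Hspb1 and Cryab) and 0 higher, against 15.8% and 16.9% of all genes. DESeq2 called 2 members lower and 0 higher after adjustment, where it called 2089 of the 16117 genes lower and 2099 higher. It gave no adjusted p for Hspa1b and Dnajb1, so these calls cover only the other members. Before adjustment it had 4 members lower and 0 higher, against 2917 and 2850 of all genes. With limma-voom 1 member was lower and 0 higher, against 1185 and 1429 of all genes. In 9 of the 10 members the log2 fold change (LPS minus PBS) was below 0, as it was for 7857 of the 16117 genes tested. The median was -0.67 over the members, against 0.01 over all genes tested. With limma-voom 8 members were below 0. When PBS replicate 4 was left out, Hspa1b, Hsph1 and Dnajb1 turned to values above 0 (0.14, 0.66 and 0.19). Without PBS replicate 4 and LPS replicate 4, 3 members were lower (Hspb1, Hspa1a and Hspa1b) and 1, Hsph1, was higher, where 11.1% of all genes were called, 6.39% higher and 4.72% lower.

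**Figure D1:**
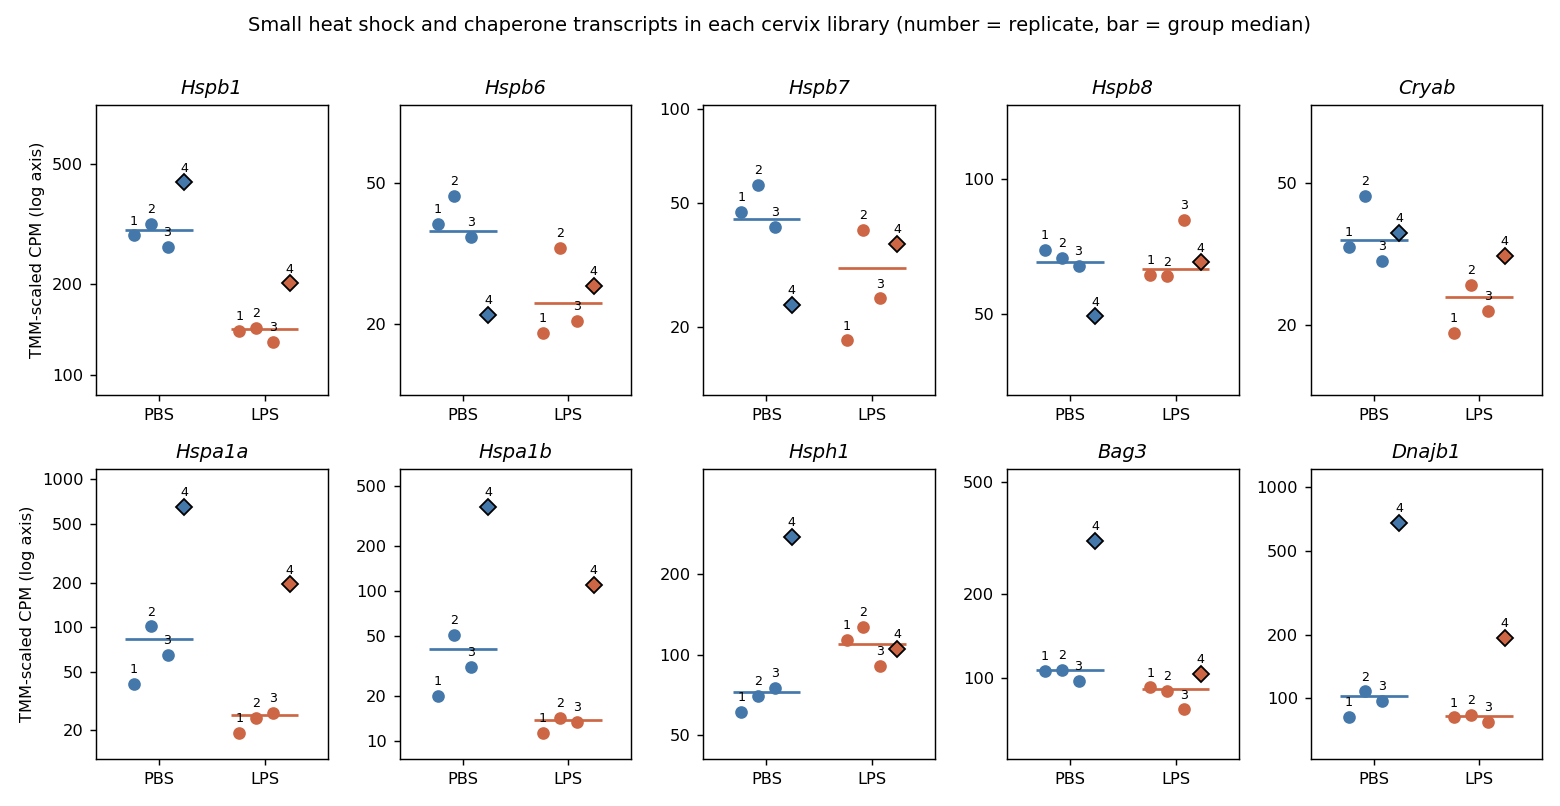
TMM-scaled CPM (log axis) of the 10 members in each of the 4 PBS (blue) and 4 LPS (orange) libraries, with the replicate number above each point, replicate 4 as a diamond and a bar at the group median. All 4 LPS values of Hspb1 lie below all 4 PBS values, and replicate 4 is the highest library of its group for Hspa1a, Hspa1b and Dnajb1 in both groups.

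Among the small heat shock genes, Hspb1 encodes HSP27, a chaperone that binds actin filaments and is phosphorylated downstream of p38 kinase. It was at 289 CPM, 316 CPM, 266 CPM and 433 CPM in PBS replicates 1 to 4, and at 140 CPM, 143 CPM, 129 CPM and 201 CPM in LPS replicates 1 to 4. The groups did not overlap, as was the case, in the lower direction, for 10.5% of all genes tested. The mean fell from 326 ± 74.3 to 153 ± 32.4 CPM (SD, n = 4 per group). The log2 fold change was -1.09 (SE 0.19, edgeR adjusted p = 0.00726). It was called in each of the 18 alternatives run, with log2 fold changes from -1.25 to -0.92 and adjusted p-values from 9.32e-07 to 0.0233. Replicate 4 was the highest library in both groups, at 1.49 times the mean of the other PBS libraries and 1.46 times that of the other LPS libraries. Without both, the log2 fold change was -1.08 (SE 0.10, edgeR adjusted p = 0.0038).

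Hspb6 encodes HSP20, a target of cyclic nucleotide-dependent kinases that is linked to relaxation of smooth muscle. It was at 38.2 CPM, 45.9 CPM, 35.1 CPM and 21.2 CPM in PBS replicates 1 to 4 and at 18.9 CPM, 32.8 CPM, 20.4 CPM and 25.6 CPM in LPS replicates 1 to 4. PBS replicate 4 lay among the LPS libraries, and the LPS values lay below the other 3 PBS values. This split was made after the values were seen, and the share of all genes that show it was not taken. The log2 fold change was -0.52 (SE 0.25, edgeR adjusted p = 0.185), and -0.73 (SE 0.23, adjusted p = 0.0912) without both replicate 4 libraries. Hspb7, known from heart and skeletal muscle where it binds filamin C, was at 46.7 CPM, 57.3 CPM, 41.9 CPM and 23.5 CPM in PBS and at 18.1 CPM, 41.1 CPM, 24.7 CPM and 37.0 CPM in LPS. As for Hspb6, PBS replicate 4 was the lowest PBS library and LPS replicate 2 the highest LPS library. Its log2 fold change was -0.49 (SE 0.32, edgeR adjusted p = 0.322), and -0.80 (SE 0.30, adjusted p = 0.136) without both. Neither Hspb6 nor Hspb7 was called in any of the 18 alternatives, in which their adjusted p-values ran from 0.0554 to 0.402 and from 0.136 to 0.601.

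Cryab encodes alpha-B-crystallin, a chaperone of desmin filaments in muscle as well as of the lens. It was at 33.1 CPM, 46.0 CPM, 30.2 CPM and 36.1 CPM in PBS replicates 1 to 4 and at 19.0 CPM, 25.9 CPM, 21.9 CPM and 31.1 CPM in LPS replicates 1 to 4. The groups overlapped by a single pair, LPS replicate 4 lying just above PBS replicate 3. The log2 fold change was -0.57 (SE 0.18, edgeR adjusted p = 0.0615). It passed the threshold without LPS replicate 4 (-0.71, adjusted p = 0.0321) and with DESeq2 (-0.58, adjusted p = 0.0174), but not without both replicate 4 libraries (-0.71, adjusted p = 0.0614), and over all alternatives the adjusted p ran from 0.0174 to 0.155. Hspb8, the small heat shock protein that works in a complex with Bag3, was at 49.5 to 69.5 CPM in PBS and 60.7 to 81.4 CPM in LPS. The groups overlapped throughout, and the log2 fold change was 0.10 (SE 0.13, edgeR adjusted p = 0.632), with values between -0.001 and 0.16 in the alternatives. In the rat RefSeq annotation (assembly GRCr8), Cryab overlaps Hspb2 and Hspb6 overlaps Lin37. No strand setting of the counting is stated, so reads in the stretches these pairs share may not have been told apart. Hspb2 itself was at 3.03 to 4.80 CPM in PBS and 4.32 to 5.55 CPM in LPS.

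Markers of several cell types differed between the groups as well. Of the 15 smooth muscle markers, all tested, 8 fell and 0 rose, with 13 lower and 0 higher at an unadjusted p under 0.05. DESeq2 called 12 and limma-voom 5 of them lower, and both called 0 higher. The log2 fold change with the lowest adjusted p was that of Synm, which encodes the intermediate filament protein synemin (-1.72, SE 0.35, edgeR adjusted p = 0.0133). The markers' summed level was 14442 to 17759 CPM in PBS replicates 1 to 3, 6644 CPM in PBS replicate 4 and 5742 to 8138 CPM in LPS. PBS replicate 4 was thus the PBS library that was low in smooth muscle markers as well as in Hspb6 and Hspb7. Without both replicate 4 libraries, 14 of the 15 fell. In a bulk sample, fewer cells of a type and less RNA per cell cannot be told apart. Per 1000 CPM of summed smooth muscle markers, Hspb1 was at 16.3 to 21.9 CPM in PBS replicates 1 to 3, 65.2 CPM in PBS replicate 4 and 16.2 to 24.7 CPM in LPS, so that on this scale the groups overlapped. Cryab, at 1.87 to 5.44 CPM in PBS and 2.75 to 3.85 CPM in LPS, overlapped too. Hspb6 was at 2.15 to 3.19 CPM in PBS and 2.56 to 4.88 CPM in LPS, and Hspb7 at 2.63 to 3.97 CPM and 3.10 to 6.10 CPM, so the groups overlapped for both. On the same scale Hspb8 was at 3.91 to 7.44 CPM in PBS and 8.02 to 10.7 CPM in LPS. These did not overlap, as was the case, in the higher direction on this scale, for 16.9% of all genes, and the summed markers it is divided by were themselves lower in LPS. The squamous epithelium markers summed to 7498 to 13324 CPM in PBS, with PBS replicate 4 the highest, and to 5286 to 6326 CPM in LPS, and 2 of the 7 tested (Krt13 and Sprr1a) fell. Of the red cell markers 6 of 7 tested fell (sums of 737 to 2287 CPM in PBS and 124 to 680 CPM in LPS), 5 of 8 fibroblast markers rose (14067 to 17247 CPM and 19557 to 29923 CPM), and 2 of 8 endothelial and 2 of 8 neuron and Schwann cell markers fell. Without both replicate 4 libraries, 0 of 7 red cell markers fell, with 6 lower at an unadjusted p under 0.05. In that fit 3 of 8 fibroblast markers rose. The squamous, endothelial, and neuron and Schwann cell lists each had 1 marker that fell. The part of these cell types and of smooth muscle in the values of Hspb1 and the other small heat shock genes was not tested.

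The inducible HSP70 genes did not pass the test in the fit of all 8 libraries with no covariate. Hspa1a was at 41.4 CPM, 101 CPM, 65.0 CPM and 655 CPM in PBS replicates 1 to 4 and at 19.2 CPM, 24.1 CPM, 26.4 CPM and 195 CPM in LPS replicates 1 to 4. Hspa1b was at 20.0 CPM, 50.5 CPM, 31.1 CPM and 361 CPM in PBS and at 11.3 CPM, 14.2 CPM, 13.3 CPM and 110 CPM in LPS. In each group replicate 4 was the highest by far, at 9.48 and 10.7 times the mean of the other PBS libraries for Hspa1a and Hspa1b, and at 8.38 and 8.49 times that of the other LPS libraries. Within replicates 1 to 3, every LPS value lay below every PBS value for both genes, as for 16.8% of all genes in these 6 libraries, which were chosen after their values were seen.

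With all libraries the log2 fold change was -1.71 for Hspa1a (SE 1.08, edgeR adjusted p = 0.31) and -1.64 for Hspa1b (SE 1.11, adjusted p = 0.343). It was -0.06 and 0.14 without PBS replicate 4 (adjusted p = 0.973 and 0.938), and -3.21 and -3.15 without LPS replicate 4 (adjusted p = 0.0744 and 0.0889). Without both it was -1.57 for Hspa1a (SE 0.32, adjusted p = 0.0275) and -1.39 for Hspa1b (SE 0.32, adjusted p = 0.0407), and both passed. The range of adjusted p over the alternatives was 0.00713 to 0.973 for Hspa1a and 0.0104 to 0.938 for Hspa1b. Both lower ends came from the fit with the replicate number as a block, although these numbers did not pair the samples. The genes encode nearly identical proteins, so the authors' counting could have split reads that match both, or dropped them. The ratio of Hspa1a to Hspa1b counts stayed between 1.69 and 2.09 in all 8 libraries. Added to 1 feature before the fit, they gave a log2 fold change of -1.68 (SE 1.09, edgeR adjusted p = 0.322). In the same annotation Hspa1a overlaps Hspa1l, a relative expressed mainly in testis, which was at 0.785 to 3.45 CPM.

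**Figure D2:**
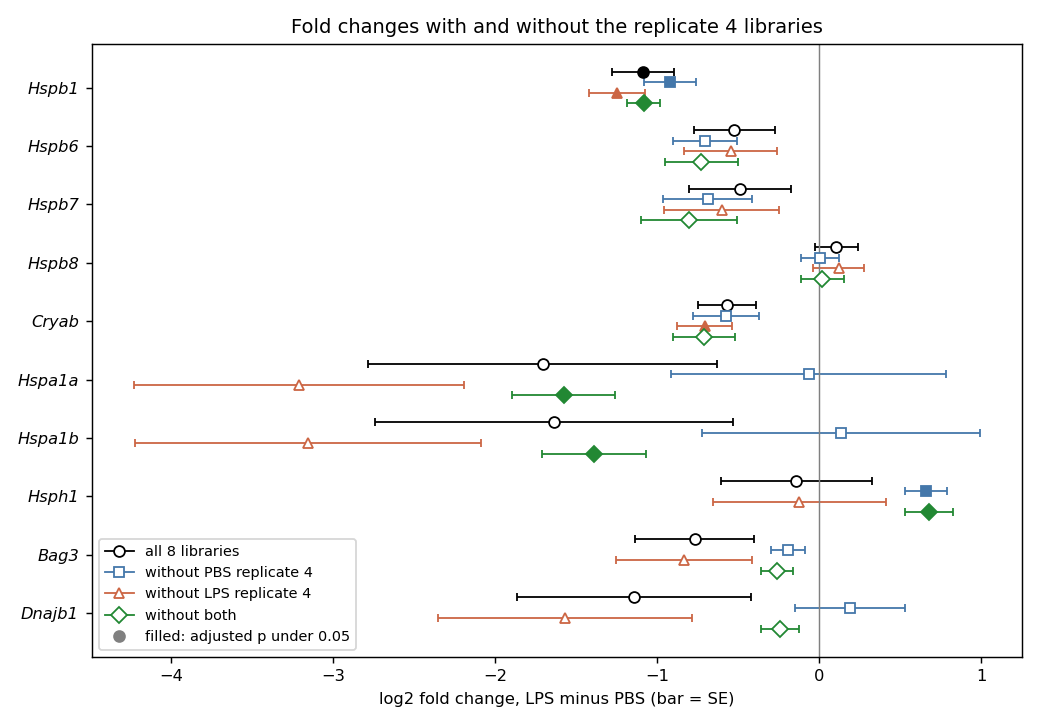
Log2 fold change, LPS minus PBS, of each member (point) with its SE (bar), for all 8 libraries and without PBS replicate 4, LPS replicate 4 or both. Points are filled where the adjusted p is under 0.05. Hspb1 is filled in all 4 settings, Cryab only without LPS replicate 4, and Hspa1a and Hspa1b only without both libraries. Hsph1, with a value near 0 for all libraries, is filled at 0.66 and 0.68 without PBS replicate 4 and without both.

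None of the 3 HSP70 partners passed the test with all libraries, and each was highest in PBS replicate 4 within PBS. Dnajb1, the J-domain protein that delivers clients to HSP70, was at 81.5 CPM, 108 CPM, 97.1 CPM and 676 CPM in PBS replicates 1 to 4 and at 81.4 CPM, 83.5 CPM, 77.7 CPM and 193 CPM in LPS replicates 1 to 4. Replicate 4 was the highest library in both groups. The log2 fold change was -1.14 (SE 0.72, edgeR adjusted p = 0.308), 0.19 without PBS replicate 4 (adjusted p = 0.753) and -0.24 without both (SE 0.12, adjusted p = 0.227). Bag3, which links HSP70 and Hspb8 to autophagy of damaged filamin, was at 107 CPM, 107 CPM, 98.1 CPM and 309 CPM in PBS and at 92.9 CPM, 90.5 CPM, 77.6 CPM and 104 CPM in LPS. Only PBS replicate 4 stood apart for Bag3, at 2.97 times the mean of the other PBS libraries, and LPS replicate 4 was at 1.19 times that of the other LPS libraries. The log2 fold change was -0.77 (SE 0.37, edgeR adjusted p = 0.185), -0.19 without PBS replicate 4 (SE 0.11, adjusted p = 0.276) and -0.26 without both (SE 0.10, adjusted p = 0.145).

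Hsph1, the HSP110 chaperone that exchanges nucleotide on HSP70, was at 61.2 CPM, 70.2 CPM, 75.1 CPM and 274 CPM in PBS replicates 1 to 4 and at 113 CPM, 127 CPM, 90.6 CPM and 105 CPM in LPS replicates 1 to 4. All 4 LPS libraries lay above PBS replicates 1 to 3 and below PBS replicate 4. The share of all genes with such a split, made after the values were seen, was not taken. LPS replicate 4, the highest LPS library for Hspa1a, Hspa1b and Dnajb1, was at 0.956 times the mean of the other LPS libraries for Hsph1. With all libraries the log2 fold change was -0.14 (SE 0.47, edgeR adjusted p = 0.866). Without PBS replicate 4 it was 0.66 (SE 0.13, adjusted p = 0.0175), and without both replicate 4 libraries 0.68 (SE 0.15, adjusted p = 0.0326), so that Hsph1 rose in these fits, in which Hspa1a and Hspa1b had values of -0.06 and 0.14, and of -1.57 and -1.39. Over all alternatives its adjusted p ran from 0.0175 to 0.960.

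Set side by side, the small heat shock genes summed to 437 to 564 CPM in PBS and to 257 to 360 CPM in LPS, without overlap. Of the single genes tested, 10.5% were lower in LPS without overlap, Hspb1 among them. Without Hspb1 the remaining 4 summed to 130 to 216 CPM in PBS and 117 to 161 CPM in LPS, and the groups overlapped. Hspa1a and Hspa1b summed to 61.4 to 1016 CPM in PBS and 30.5 to 304 CPM in LPS. These sums are not per transcript length, so their ratio is informative only between libraries. The log2 ratio of the small heat shock sum to the HSP70 sum was 2.96, 1.81, 2.18 and -0.85 in PBS replicates 1 to 4 and 3.08, 2.99, 2.80 and 0.24 in LPS replicates 1 to 4. The ratio was lowest in replicate 4 of each group. The mean log2 ratio was 0.75 higher in LPS, which is less than the spread within groups over all 8 libraries (pooled SD 1.52). That spread includes the low replicate 4 values. Without both replicate 4 libraries the mean log2 ratio was 0.64 higher in LPS. The log2 ratio then ran from 1.81 to 2.96 in PBS and from 2.80 to 3.08 in LPS, so the groups overlapped. Without PBS replicate 4 alone the mean log2 ratio differed by -0.04. No test is given for this ratio, since it is a score over chosen genes.

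**Figure D3:**
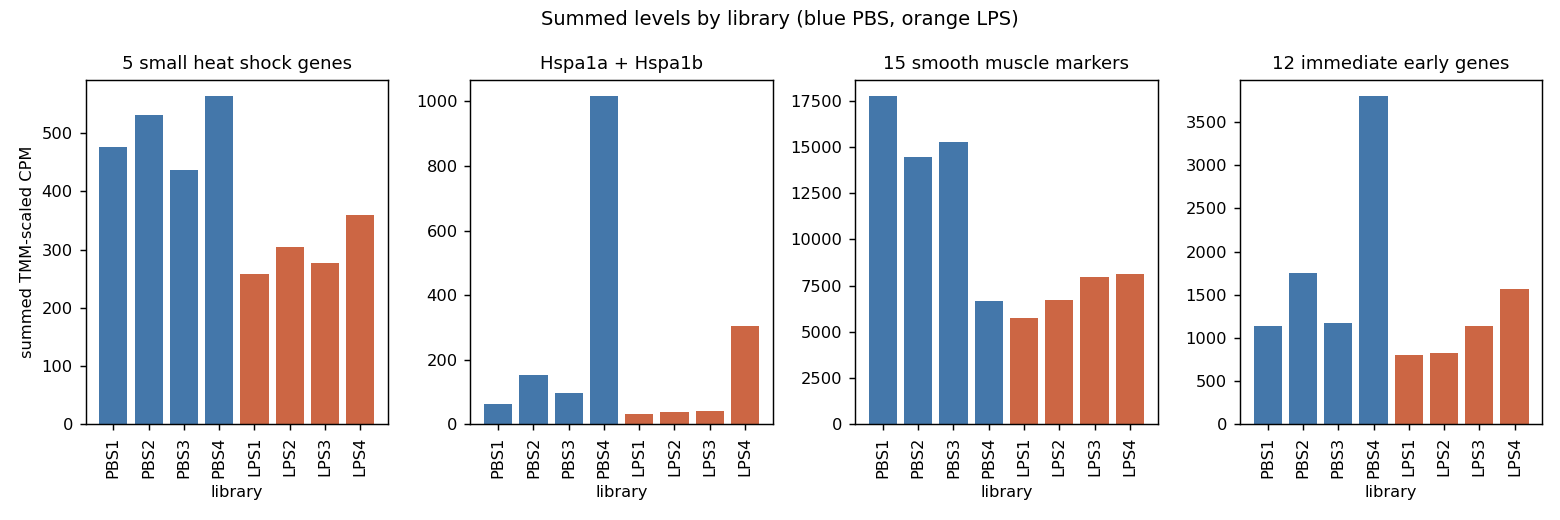
Summed TMM-scaled CPM per library (bars from 0; PBS blue, LPS orange) of the 5 small heat shock genes, of Hspa1a and Hspa1b, of 15 smooth muscle markers and of 12 immediate early genes. The small heat shock sums of LPS (257 to 360 CPM) lie below those of PBS (437 to 564 CPM), but the groups overlap when Hspb1 is left out of the sum. The HSP70 and immediate early sums are highest in PBS replicate 4 (1016 and 3799 CPM) and, within LPS, in LPS replicate 4 (304 and 1567 CPM).

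Replicate 4 was at least 2-fold above the next library of its own group, in both groups, for 12 of the 14332 genes averaging 1 CPM or more, or 0.0837%. Of these 12, Hspa1a, Hspa1b and Dnajb1 were members, Jun and Fosb were on the immediate early list, and Mmp8 was on the neutrophil list. The others were Egr3, Irag2, LOC120093125, RT1-CE16, Retnlg and Trem3. Both the margin and the choice of replicate 4 were set after its values were seen. For PBS replicate 4 alone this held for 69 genes (0.481%), among them the 5 members Hspa1a, Hspa1b, Hsph1, Bag3 and Dnajb1. The margins of these 5 over the next PBS library were 6.49, 7.15, 3.65, 2.88 and 6.26-fold, and over the next LPS library those of LPS replicate 4 were 7.38-fold for Hspa1a, 7.75-fold for Hspa1b and 2.31-fold for Dnajb1. The 12 immediate early genes, transcription factors and signal regulators that are induced within minutes of a stimulus, summed to 1141 to 1753 CPM in PBS replicates 1 to 3 and to 3799 CPM in PBS replicate 4. In LPS they summed to 808 to 1138 CPM in replicates 1 to 3 and to 1567 CPM in replicate 4. 11 of the 12 were highest in PBS replicate 4 within PBS, and 9 were highest in LPS replicate 4 within LPS. Of the genes averaging 1 CPM or more, 29.7% and 24.3% were highest in these libraries. Their part in the HSP70 values was not tested, and the shared number 4 does not pair the animals in the labels. LPS replicate 4 carries the number 5 in its library name.

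By the root mean square difference of log2 CPM centred over the 8 libraries, the gene most like Hspa1b was Hspa1a (0.12), followed by Dnajb1 (0.75) and by Atf3 (0.78), a stress-induced transcription factor of the immediate early list. Atf3 was at 8.02 to 143 CPM in PBS and 9.65 to 23.5 CPM in LPS. The genes most like Hspb6 were Klhl23 (0.14), the water channel Aqp1 (0.15) and Bend6 (0.15), all lower in PBS replicate 4 than in the other PBS libraries. Aqp1 was at 204 to 446 CPM in PBS and 182 to 266 CPM in LPS (log2 fold change -0.71, SE 0.23, edgeR adjusted p = 0.0698), and it fell without PBS replicate 4 (-0.90, adjusted p = 0.0113). Klhl23 and Bend6 had log2 fold changes of -0.46 and -0.56 (edgeR adjusted p = 0.138 and 0.162).

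Sequence upstream of the start was compared because Hspb1, Hsph1, Bag3 and Dnajb1 had different patterns, and heat shock factor 1 binds inverted repeats of the letters GAA. The 250 bases before the annotated start were read from RefSeq (build GRCr8, whereas the counts were made on mRatBN7.2) for the 8 members that matched, all but Cryab and Hspa1b. Searched motifs were GAANNTTC and TTCNNGAA, each its own reverse complement, and a longer motif, searched on both strands, in which the pair overlap by 3 shared letters. 6 of the 8 windows held a shorter motif (Hspb1, Hspb6, Hspb8, Hsph1, Bag3 and Dnajb1), as did 13.5% of 33469 RefSeq windows of the same length. Hsph1 alone held the longer motif, present in 0.663% of windows, between 36 and 24 bases before the start. The nearest motif lay 11 to 4 bases before the start in Dnajb1, 109 to 102 in Hspb1 and 132 to 125 in Bag3. Hspb7 and Hspa1a held no match in these windows, which says only that these letters are absent there. The annotated start of Hspa1a may differ from the start used after heat shock, so its window may not hold that promoter. A match is a description of letters, not a site. The windows of Hspb1 (chr12:26432302-26432551, minus strand), Hsph1 (chr12:10427118-10427367, plus strand), Bag3 (chr1:192533210-192533459, plus strand) and Dnajb1 (chr19:41431142-41431391, minus strand) are shown 5′ to 3′ on the gene's strand, with the motifs in capitals.
Hspb1: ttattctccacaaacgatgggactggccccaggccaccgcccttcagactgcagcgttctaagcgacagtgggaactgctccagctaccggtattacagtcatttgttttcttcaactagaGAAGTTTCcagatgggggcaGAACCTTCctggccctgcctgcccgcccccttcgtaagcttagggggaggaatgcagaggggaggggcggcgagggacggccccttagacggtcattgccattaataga
Hsph1: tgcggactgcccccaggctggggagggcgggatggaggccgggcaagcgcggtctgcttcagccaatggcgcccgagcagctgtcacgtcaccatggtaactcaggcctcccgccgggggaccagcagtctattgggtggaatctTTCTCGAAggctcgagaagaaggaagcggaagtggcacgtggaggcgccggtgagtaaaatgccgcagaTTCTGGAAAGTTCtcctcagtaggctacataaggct
Bag3: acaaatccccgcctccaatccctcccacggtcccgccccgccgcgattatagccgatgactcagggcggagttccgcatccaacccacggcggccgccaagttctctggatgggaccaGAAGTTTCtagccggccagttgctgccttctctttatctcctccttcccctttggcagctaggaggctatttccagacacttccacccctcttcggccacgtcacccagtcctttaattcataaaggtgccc
Dnajb1: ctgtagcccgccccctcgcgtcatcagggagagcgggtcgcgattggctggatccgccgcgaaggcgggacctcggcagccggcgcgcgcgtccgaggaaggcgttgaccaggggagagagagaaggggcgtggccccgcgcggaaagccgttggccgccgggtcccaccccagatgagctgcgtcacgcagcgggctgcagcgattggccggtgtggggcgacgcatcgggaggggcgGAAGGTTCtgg

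In the wider chaperone system, of 84 further genes in 9 lists (other small heat shock proteins, heat shock factors, other HSP70 and HSP110 proteins, other J-domain proteins, HSP70 cofactors, HSP90 and its co-chaperones, the TRiC chaperonin with prefoldin, mitochondrial chaperones, and autophagy partners of Bag3), 79 were tested, 2 rose and 4 fell. That is 7.59% of those tested, against 16.9% of all genes, with a median log2 fold change of 0.05 against 0.01. DESeq2 called 3 higher and 11 lower, or 17.7% against 26.0% of all genes. Without both replicate 4 libraries 5 were higher and 7 lower, or 15.2% against 11.1%, so the order of the shares turned. The difference between these shares was not tested.

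Hsf1, the heat shock factor that drives the HSP70 genes, fell from 41.6 ± 4.37 to 31.7 ± 2.19 CPM (n = 4 per group), with every LPS library below every PBS library (log2 fold change -0.39, SE 0.09, edgeR adjusted p = 0.025). Leaving out PBS replicate 2 or 4, or LPS replicate 1, 2 or 3, ended the call, as did leaving out both replicate 4 libraries (adjusted p = 0.0512). Of the other HSP70 and HSP110 genes, 1 of 8 tested rose, Hspa12a, a distant HSP70 relative, from 7.43 ± 0.206 to 20.5 ± 9.31 CPM (1.46, SE 0.29, edgeR adjusted p = 0.0115). Hspa8, the constitutive HSP70, was at 1396 to 1999 CPM in PBS and 1382 to 1942 CPM in LPS, and the groups overlapped (0.08, SE 0.16, adjusted p = 0.76). Its PBS replicate 4 was at 1.39 times the mean of the other PBS libraries and its LPS replicate 4 at 0.782 times that of the other LPS libraries.

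Among 10 other J-domain genes, Dnajb4 fell by 0.57 on the log2 scale (SE 0.17, edgeR adjusted p = 0.0476), a call that ended with limma-voom, without both replicate 4 libraries, and when any single library but PBS replicate 1 was left out. Among 9 HSP70 cofactors, Bag2, which inhibits the ubiquitin ligase Stub1, fell by 0.44 (SE 0.12, edgeR adjusted p = 0.0386). That call ended when any single library but LPS replicate 4 was left out. It held with DESeq2, with limma-voom, and without both replicate 4 libraries (-0.56, edgeR adjusted p = 0.0424). Of 14 tested genes of HSP90 and its co-chaperones, Fkbp5, an HSP90 co-chaperone of steroid receptors that glucocorticoids and progestins induce, fell from 134 ± 25.9 to 57.5 ± 12.6 CPM (-1.22, SE 0.19, edgeR adjusted p = 0.00436), in each of the 18 alternatives. Hsp90aa1, the stress-inducible HSP90, was at 295 CPM, 307 CPM, 297 CPM and 727 CPM in PBS replicates 1 to 4 and at 435 CPM, 445 CPM, 457 CPM and 523 CPM in LPS replicates 1 to 4. As for Hsph1, all LPS libraries lay above PBS replicates 1 to 3 and below PBS replicate 4, again with no share of all genes taken. The log2 fold change of Hsp90aa1 was 0.19 (SE 0.30, edgeR adjusted p = 0.692) with all libraries, 0.63 without PBS replicate 4 (SE 0.10, adjusted p = 0.00741) and 0.57 without both replicate 4 libraries (SE 0.08, adjusted p = 0.0113). Hsp90ab1, the constitutive form, had a log2 fold change of 0.26 (SE 0.14, edgeR adjusted p = 0.242). Stip1, which bridges HSP70 and HSP90, and Chordc1, an HSP90 co-chaperone, were named after their values were seen: they rose without both replicate 4 libraries, by 0.47 (adjusted p = 0.0244) and 0.56 (edgeR adjusted p = 0.0392).

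Of 12 autophagy partners of Bag3, 1 rose: Hdac6, a deacetylase that carries misfolded proteins to aggresomes, from 15.2 ± 0.933 to 26.7 ± 3.56 CPM (0.81, SE 0.11, edgeR adjusted p = 0.0026), in each of the 18 alternatives. Its muscle partners, named after their values were seen, were low in PBS replicate 4 and in LPS. Flnc, the muscle filamin, was at 310 CPM, 392 CPM, 387 CPM and 141 CPM in PBS replicates 1 to 4 and at 133 to 211 CPM in LPS (adjusted p = 0.0681), and without both replicate 4 libraries it fell by 1.18 (SE 0.21, edgeR adjusted p = 0.0183). Synpo2, which tethers Bag3 to actin, had an adjusted p of 0.067 with all libraries and fell by 1.19 (edgeR adjusted p = 0.025) without both. The 13 tested genes of TRiC and prefoldin, which fold actin and tubulin, gave 0 calls with edgeR and limma-voom and 1 with DESeq2 (Cct4, higher). At an unadjusted p under 0.05, 3 of them were higher and 0 lower with edgeR. The 9 mitochondrial chaperones gave 0 calls with edgeR, DESeq2 and limma-voom, and 0 at an unadjusted p under 0.05 with edgeR.

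**Figure D4:**
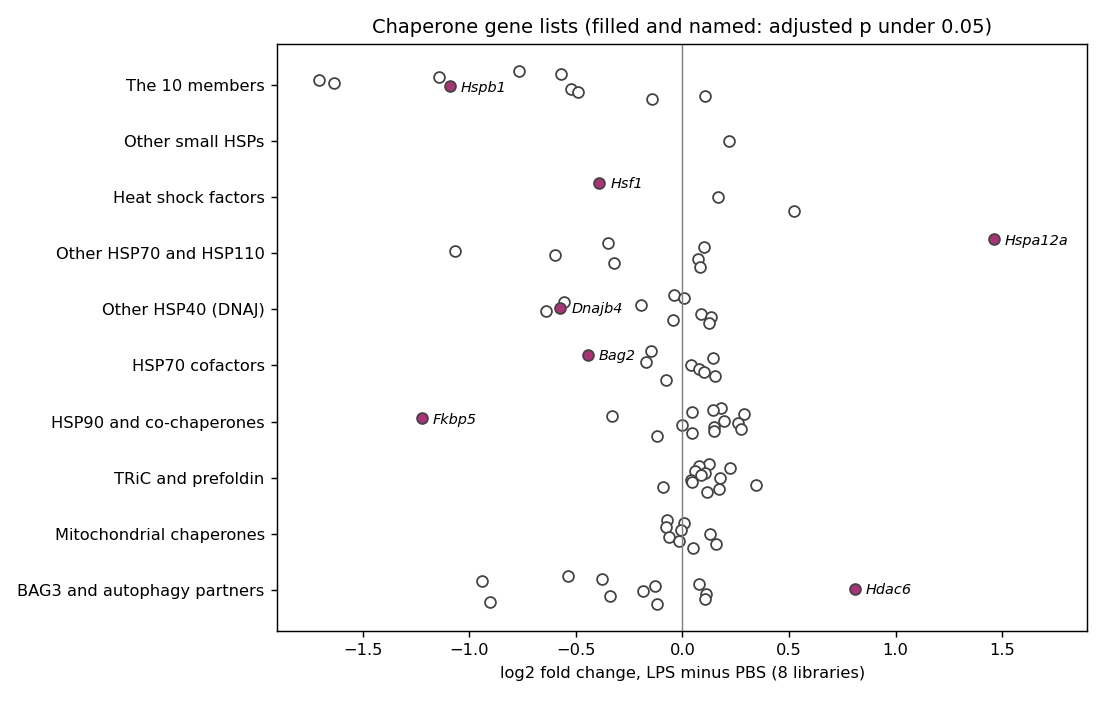
Log2 fold change, LPS minus PBS, over all 8 libraries for the 10 members and the tested genes of 9 further chaperone lists, 1 point per gene, filled and named where the adjusted p is under 0.05. Hspb1 is the filled member, and 6 of the 79 further genes are filled, with Hspa12a at 1.46 and Fkbp5 at -1.22 the farthest from 0 among them.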

How the data were processed

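RNA came from TRIzol extraction and was built into VAHTS Universal V6 libraries, per the labels' protocols. The table the authors deposited holds raw read counts, whole numbers by gene symbol. Per the submitters' processing notes, the tools were HTSeq, HISAT2, fastp and R 3.2.0, on build mRatBN7.2. The annotation and strand setting were not given in the sources used here. Columns were matched to samples through library names in the labels, and 0 columns were left over. The groups were tested with edgeR 4.0.16 in R 4.3.3 (filterByExpr by group, TMM scaling, robust quasi-likelihood F test, no covariate, Benjamini-Hochberg over all 16117 genes tested), called at an adjusted p under 0.05. The SE is the size of the log2 fold change over the square root of F. Adjusted p-values in the text are edgeR's unless another tool is named. No 2 libraries within a group agreed to within sampling noise (the lowest chi-square over its degrees of freedom was 54.1). Counting error covers reads only.

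The members and gene lists were chosen with earlier results of these data known. Named genes were the members, the called gene with the lowest adjusted p in each direction of the chaperone lists and of smooth muscle, Hsf1, Hspa8, Hsp90aa1 and Hsp90ab1, and the 3 genes closest to Hspb6 and to Hspa1b (of at least 1 CPM on average, prior count 2). Others were named after their values were seen. Other settings tried were upper-quartile and RLE scaling, no filter, a filter of 1 CPM in 4 libraries, DESeq2 1.42.0, limma-voom 3.58.1, each library left out, the replicate number as a block, and Hspa1a and Hspa1b added. Leaving out both replicate 4 libraries, and limma-voom with library weights, were chosen after seeing the data. The fit was tested on simulated data.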

Additional observations from a re-analysis of the deposited data

Results flagged for a closer look

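In 8 of the 20 sets of 4 libraries formed by the 10 members and both groups, 1 library lay far from the other 3 (by the gap to its nearest neighbour as a share of the range, at a limit that chance passes in about 1 of 20 sets), and in all 8 it was replicate 4. In PBS replicate 4 these were Hspa1a at 655 CPM (next highest 101 CPM), Hspa1b at 361 CPM (next 50.5 CPM), Hsph1 at 274 CPM (next 75.1 CPM), Bag3 at 309 CPM (next 107 CPM) and Dnajb1 at 676 CPM (next 108 CPM). In LPS replicate 4 they were Hspa1a at 195 CPM (next 26.4 CPM), Hspa1b at 110 CPM (next 14.2 CPM) and Dnajb1 at 193 CPM (next 83.5 CPM). Among the further genes named, PBS replicate 4 also lay apart for Hsp90aa1 at 727 CPM (next 307 CPM), Hsp90ab1 at 1817 CPM (next 1388 CPM) and Atf3 at 143 CPM (next 26.0 CPM). The sets are not independent of each other, since they share libraries. The small heat shock genes had no such library in either group.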

How the results depend on the processing

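Over 18 alternatives for each of the 10 members, 178 of 180 values had an adjusted p. Of these, 163 kept their direction and their side of the threshold, 9 passed it anew and 8 changed sign, 2 of them (Hsph1) doing both. Those that changed sign were Hsph1 with limma-voom (0.15), with library weights (0.26), under the block (0.18), without PBS replicate 4 (0.66) and without both replicate 4 libraries (0.68), Hspa1b (0.14) and Dnajb1 (0.19) without PBS replicate 4, and Hspb8 without LPS replicate 3 (-0.0011). Of the further genes, Hspa8 did so without LPS replicate 2 (-0.0051). DESeq2 called 2 members lower, and 2089 of all genes lower against 1200. It gave no adjusted p for Hspa1b and Dnajb1, the 2 values left out. Without both replicate 4 libraries 1 member was higher and 3 were lower, and 765 of all genes were lower. With 1 library left out, 0 to 1 members were higher and 1 to 2 lower, and 904 to 1385 of all genes were higher and 563 to 1199 lower. The lowest counts, 904 and 563, came without PBS replicate 2, and lower calls were also few without PBS replicate 3 (752) and LPS replicate 3 (750). Over these fits the log2 fold change ran from -3.15 to 0.14 for Hspa1b, -0.36 to 0.66 for Hsph1, -1.57 to 0.19 for Dnajb1, -0.0011 to 0.16 for Hspb8 and -0.0051 to 0.21 for Hspa8, and the log2 ratio of small heat shock to HSP70 sums differed by -0.04 to 1.43. The cause was not tested.

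The replicate numbers did not pair the samples: deviations from the group means correlated at -0.13, -0.18, -0.09 and 0.21 for numbers 1 to 4. With the replicate block, 4 members were lower (Hspb1, Cryab, Hspa1a and Hspa1b) and 0 higher, with 1151 and 845 of all genes higher and lower, and Hspa1a and Hspa1b at -1.56 (adjusted p = 0.00713) and -1.40 (adjusted p = 0.0104) by edgeR. Bag2 (adjusted p = 0.101) and Synm (adjusted p = 0.0573) were no longer called under the block by edgeR. Only the number 4 samples correlated best with their own number. Depth did not limit the members.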
